A study of Mus musculus with 8 samples.

Results

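The Notch pathway and the fate decision it controls were followed through 10 genes in mouse intestinal organoids treated with RANKL: the receptors Notch1 and Notch2, the ligands Dll1, Dll4, Jag1 and Jag2, the DNA-binding mediator Rbpj, the targets Hes1 and Nrarp, and the secretory fate gene Atoh1. They were chosen by name, as genes that set absorptive against secretory fate, and all 10 were found among the 54532 genes listed. Of these, 7 had enough counts to be tested and 3 (Notch2, Dll4 and Jag2) did not. Bulk 3′ mRNA sequencing covered 8 libraries, 4 from control organoids and 4 from organoids treated with RANKL, the ligand of the receptor RANK. Organoids of this kind grow from intestinal crypts embedded in Matrigel and hold epithelium without stroma. The culture medium of the study, for both groups, contains EGF, NOGGIN and R-spondin. The labels give no mouse strain, age or sex, no genotype and no separate cultures or animals for the replicates, and neither they nor the methods name the RANKL dose and duration for these libraries. P-values therefore measure the spread between these samples, which may be technical.

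Notch signalling acts between neighbouring cells. A Delta-like or Jagged ligand on one cell binds a Notch receptor on the next, proteases release the intracellular domain of the receptor, and this enters the nucleus and joins RBPJ to switch on targets such as Hes1 and Nrarp. In the intestinal crypt, cells with active Notch express HES1, which represses Atoh1, and stay progenitors or become absorptive. Cells that escape the signal express ATOH1, display Delta-like ligands and become secretory cells such as Paneth, goblet or enteroendocrine cells.

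Library totals ran from 583663 to 7807298 counts in the control and from 613135 to 1923354 in the RANKL group, so that 1 count was worth 0.127 to 1.72 CPM, and a count of 0 allows up to 3 counts, or 0.382 to 5.16 CPM. CPM here is the count scaled to a common total, with TMM factors on the library totals. Values are given for replicates 1 to 4 in order, means ± SD are over the 4 libraries of a group, and control replicate 4 and RANKL replicate 1 were the libraries under 1000000 counts. Floors, and the interval of a pooled count ratio, cover counting error only, and no molecular identifiers are mentioned. The intervals of log2 fold changes come from the fit and include the spread between libraries. The 10 genes were tested in a fit over all 9971 genes that passed the count filter. Differences are log2 fold changes of RANKL against control with their standard error (SE), from edgeR's quasi-likelihood test. Over all genes tested, 2587 (25.9%) passed an adjusted p of 0.05, with 1355 (13.6%) higher and 1232 (12.4%) lower. Fewer cells of a type and less RNA per cell cannot be told apart in bulk libraries.

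Of the 7 genes tested, Dll1 and Rbpj rose and Nrarp and Hes1 fell with RANKL, while Notch1, Jag1 and Atoh1 did not pass the threshold. These 4 of 10 genes stand beside the 25.9% called among all genes tested, and the 3 genes below the count filter could not be called. The median log2 fold change of the 7 was -0.16, against 0.00017 over all genes tested. In each of the 4 genes past the threshold the control and RANKL libraries did not overlap in CPM, which held for 24.6% of all genes tested, 13.1% higher and 11.5% lower. A ligand and the DNA-binding mediator thus moved one way and both targets among the 10 genes the other.

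**Figure D1:**
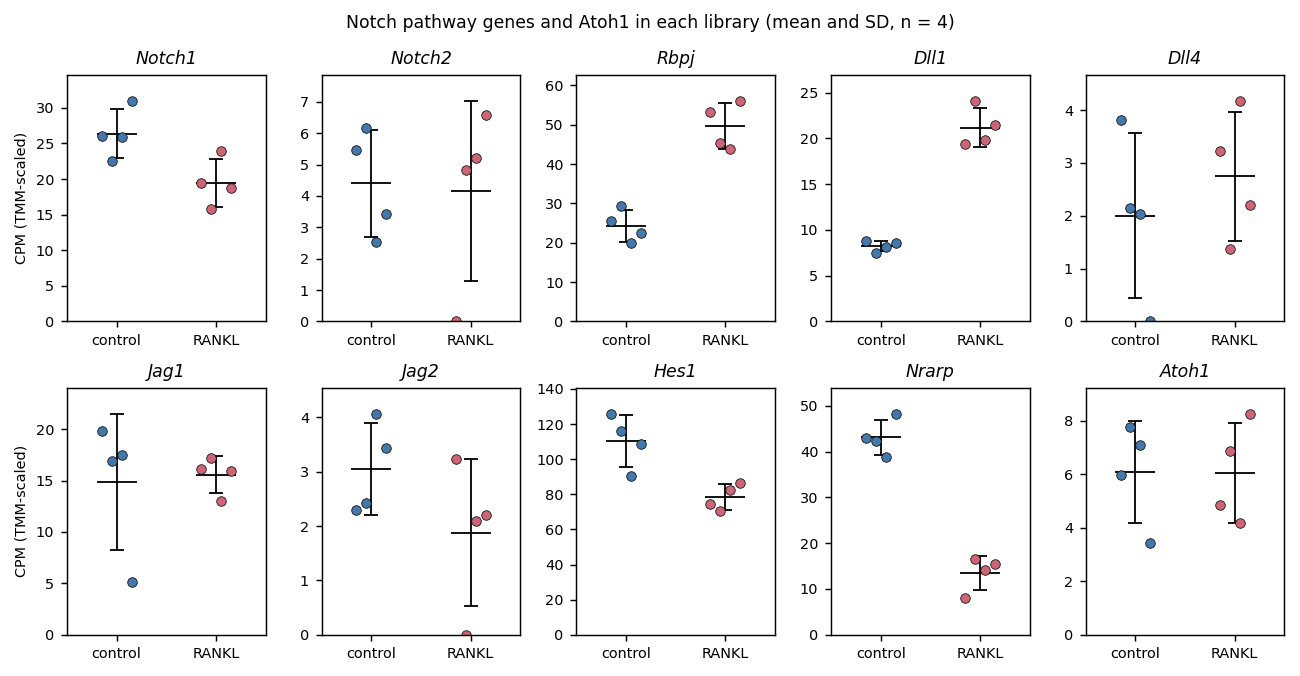
CPM of each of the 10 genes in the 4 control and 4 RANKL libraries. Each panel is 1 gene with its own axis from 0, points are libraries, and bars are the mean ± SD of the group. The groups are apart for Dll1 and Rbpj (RANKL above) and for Hes1 and Nrarp (RANKL below), and overlap for the other 6 genes.

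Among the ligands, Dll1 was the one that passed the threshold. Dll1, the Delta-like ligand on nascent secretory cells, was at 8.78, 7.51, 8.11 and 8.60 CPM in the control libraries and at 19.4, 24.1, 19.8 and 21.4 CPM in the RANKL libraries. The lowest RANKL library exceeded the highest control library, with a gap wider than the whole range of either group. The mean of 8.25 ± 0.569 CPM in control stood against 21.2 ± 2.13 CPM with RANKL (SD, n = 4 each), 2.58-fold higher (log2 fold change 1.37, SE 0.22, 95% interval 0.92 to 1.81, edgeR adjusted p = 1.5e-05). The exact two-sided permutation test gave p = 0.0286, the smallest that 70 assignments can give. Dropping single libraries kept it between 1.30 and 1.42 on the log2 scale and past the threshold. The counts behind it were 134 over the control and 124 over the RANKL libraries, and 5 in the shallowest control library.

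Dll1 (ENSMUSG00000014773) lies on the minus strand of chromosome 17 from 15367354 to 15376872 (GRCm38). RefSeq gives it a pair of start sites, and the window before the outer one is shown. It was picked because Dll1 rose and because the window holds an E box of the kind that basic helix-loop-helix factors such as ATOH1 bind. The outer start, at 15376932, lies outside the span given above, and the window before the inner start, at 15375823, held no CAGCTG. The 250 bases before that start, at chr17:15376933-15377182 on the minus strand of GRCm38.p6, read 5′ to 3′ with CAGCTG in capitals, 132 to 127 bases before the start:
Dll1: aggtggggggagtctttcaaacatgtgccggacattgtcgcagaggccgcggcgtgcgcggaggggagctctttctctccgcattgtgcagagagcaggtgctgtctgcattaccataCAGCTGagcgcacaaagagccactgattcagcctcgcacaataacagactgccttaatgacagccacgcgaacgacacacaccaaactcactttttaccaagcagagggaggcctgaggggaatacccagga
This window overlaps 1 exon of the GENCODE annotation, searched on either strand. CAGCTG was found in 13% of 32851 promoter windows of the same length, on either strand, and among the 9 genes with a window it was found only in Dll1 and Jag1. The match is a description of the letters, and no binding was measured.

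The other ligands were low or did not differ past the threshold. Jag1 (ENSMUSG00000027276, chromosome 2 from 137081456 to 137116644), a Jagged ligand, was at 19.9, 16.9, 17.5 and 5.16 CPM in control and at 16.1, 17.2, 13.0 and 15.9 CPM in RANKL libraries. The groups overlapped, and the low control value is the shallowest library, which held 3 counts of it. Its log2 fold change was -0.16 (SE 0.23, 95% interval -0.63 to 0.31, edgeR adjusted p = 0.66), while the mean CPM was 14.9 ± 6.59 in control and 15.6 ± 1.78 in RANKL libraries (SD, n = 4 each), so that the sign of its difference rests on how the libraries are weighted. Dll4 (ENSMUSG00000027314, chromosome 2 from 119325784 to 119335962), the other Delta-like ligand of the crypt, held 46 counts over the control and 16 over the RANKL libraries, at 3.82, 2.15, 2.03 and 0 CPM against 3.23, 1.38, 4.17 and 2.20 CPM. Jag2 (ENSMUSG00000002799, chromosome 12 from 112907819 to 112929776) held 45 and 10 counts, at 2.29, 2.42, 4.05 and 3.44 CPM against 3.23, 0, 2.09 and 2.20 CPM. Both genes overlapped between the groups and failed the count filter. Without the filter the log2 fold change was -0.0087 for Dll4 (SE 0.46, 95% interval -0.91 to 0.89) and -0.77 for Jag2 (SE 0.58, 95% interval -1.91 to 0.37). Differences of nearly 2-fold in Dll4, and larger ones in Jag2, were thus not detectable at this depth.

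Both receptors stayed below the threshold. Notch1 (ENSMUSG00000026923, chromosome 2 from 26457903 to 26516663), a main receptor of the crypt with Notch2, was at 26.1, 22.5, 25.8 and 31.0 CPM in control and at 19.4, 15.8, 24.0 and 18.7 CPM in RANKL libraries. Its values overlapped through RANKL replicate 3, which lay above control replicate 2. The means were 26.4 ± 3.47 and 19.5 ± 3.38 CPM (SD, n = 4 each), with a log2 fold change of -0.37 (SE 0.19, 95% interval -0.76 to 0.01, edgeR adjusted p = 0.15) and an exact permutation p of 0.0571. Dropping single libraries never brought it past the threshold, with log2 fold changes from -0.52 to -0.28. Notch2 (ENSMUSG00000027878, chromosome 3 from 98013527 to 98150361), whose exons overlap those of Gm42820 on the same strand, was at 5.47, 6.17, 2.53 and 3.44 CPM in control and at 0, 4.82, 5.22 and 6.59 CPM in RANKL libraries. It did not pass the count filter, with 78 and 29 counts, and without the filter its log2 fold change was 0.0046 (SE 0.39, 95% interval -0.75 to 0.76).

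Rbpj, the DNA-binding protein through which all Notch receptors act, and which represses the same targets when no Notch domain is bound, was at 25.5, 29.2, 20.02 and 22.4 CPM in control and at 53.3, 45.4, 43.8 and 56.0 CPM in RANKL libraries. The lowest RANKL library lay well above the highest control library. Its mean rose from 24.3 ± 4.00 to 49.6 ± 5.94 CPM (SD, n = 4 each), a 1.99-fold difference (log2 fold change 0.99, SE 0.16, 95% interval 0.66 to 1.32, edgeR adjusted p = 1.9e-05; exact permutation p = 0.0286). Leaving out each library kept the log2 fold change between 0.88 and 1.10 and past the threshold. Rbpj (ENSMUSG00000039191) lies on chromosome 5 from 53466152 to 53657362. Its processed pseudogenes Rbpj-ps1 and Rbpj-ps3 had 0 counts in all 8 libraries, and its paralogue Rbpjl, which does not bind Notch, had 7 counts in all, spread over 3 control libraries.

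Of the targets, Nrarp showed the larger difference. Nrarp, an ankyrin repeat protein that Notch induces and that dampens Notch in return, was at 43.0, 42.4, 38.8 and 48.2 CPM in control and at 8.07, 16.5, 14.1 and 15.4 CPM in RANKL libraries. All 4 control libraries were high and close together, all 4 RANKL libraries were low, and the lowest value is the shallowest RANKL library, with 5 counts. The mean fell from 43.1 ± 3.86 to 13.5 ± 3.76 CPM (SD, n = 4 each), 2.94-fold lower (log2 fold change -1.55, SE 0.18, 95% interval -1.93 to -1.18, edgeR adjusted p = 9.3e-08; exact permutation p = 0.0286). A log2 fold change at or below that of Nrarp was found in 22 of the 9971 genes tested (0.221%), and one at least as large in either direction in 230 (2.31%). With each library left out the value stayed between -1.63 and -1.47. The counts were 677 over the control and 84 over the RANKL libraries.

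Nrarp (ENSMUSG00000078202) lies on the plus strand of chromosome 2 from 25180758 to 25183339 (GRCm38). Its window is shown because Nrarp had the largest change of the 10 genes. The 250 bases before the RefSeq start, at chr2:25180508-25180757 on the plus strand of GRCm38.p6, read 5′ to 3′ with a match to the NF-κB consensus in capitals, on the other strand and 221 to 212 bases before the start:
Nrarp: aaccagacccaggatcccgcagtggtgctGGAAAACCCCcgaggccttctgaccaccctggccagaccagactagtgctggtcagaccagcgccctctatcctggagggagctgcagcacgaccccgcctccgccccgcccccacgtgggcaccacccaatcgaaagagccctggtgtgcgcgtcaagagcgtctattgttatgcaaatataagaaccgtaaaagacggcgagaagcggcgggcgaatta
The NF-κB consensus was found in 3.9% of the 32851 windows, and among the 9 genes with a window in Nrarp and Notch2. The RBPJ site GTGGGAA, searched on both strands, was in none of their windows and in 5.42% of all windows, and the other E box, CAGATG, was also in none of them and in 14.4%. No searched motifs overlapped one another. These letters in these windows say nothing of whether a factor bound there.

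Hes1, the repressor that keeps crypt cells from secretory fate, was at 125.5, 116.2, 90.5 and 108.3 CPM in control and at 74.3, 70.2, 82.4 and 86.2 CPM in RANKL libraries. The groups did not overlap, but the gap between control replicate 3 and RANKL replicate 4 was small. The mean fell from 110.1 ± 14.9 to 78.3 ± 7.34 CPM (SD, n = 4 each), 1.402-fold lower (log2 fold change -0.49, SE 0.13, 95% interval -0.74 to -0.23, edgeR adjusted p = 0.0039; exact permutation p = 0.0286). Left out in turn, no library ended this call, with log2 fold changes from -0.59 to -0.40. The RANKL libraries were shallower as a group, and adding the log2 library total to the fit as a covariate ended the call (log2 fold change -0.41, edgeR adjusted p = 0.0635). Hes1 (ENSMUSG00000022528) lies on chromosome 16 from 30064384 to 30067796.

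**Figure D2:**
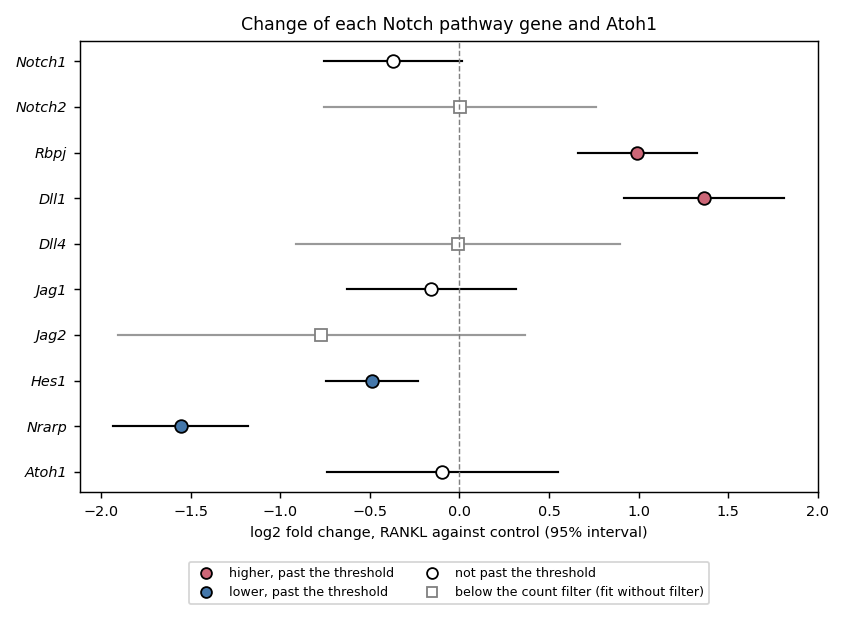
Log2 fold change of RANKL against control for each of the 10 genes, with its 95% interval. Filled points passed the threshold (red higher, blue lower), open circles did not, and grey squares are the 3 genes below the count filter, from the fit without it. Dll1 and Rbpj lie to the right of 0 and Hes1 and Nrarp to the left with intervals clear of 0, and the intervals of the other 6 genes include 0.

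Atoh1 (ENSMUSG00000073043, chromosome 6 from 64729125 to 64731245), a transcription factor of secretory fate, did not differ past the threshold. It was at 5.98, 7.78, 7.10 and 3.44 CPM in control and at 4.84, 6.88, 4.17 and 8.24 CPM in RANKL libraries. The groups overlapped throughout, with means of 6.08 ± 1.91 and 6.03 ± 1.87 CPM (SD, n = 4 each). Its log2 fold change was -0.10 (SE 0.32, 95% interval -0.74 to 0.55, edgeR adjusted p = 0.86; exact permutation p = 1). With 106 counts over the control and 36 over the RANKL libraries, the ratio of the pooled counts was 0.942 with an exact 95% interval of 0.626 to 1.39. That interval covers counting error only, and the interval of the fit, -0.74 to 0.55 on the log2 scale, is wider. Changes of at least the size of the fit's interval, in either direction, could have been missed at this depth. Leaving out single libraries moved the log2 fold change from -0.32 to 0.10.

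The balance of Atoh1 to Hes1, as a log2 ratio of their CPM with 0.5 CPM added, was -4.28, -3.82, -3.58 and -4.79 in control and -3.81, -3.26, -4.15 and -3.31 in RANKL libraries. The groups overlapped. The mean ratio was -4.12 ± 0.533 in control and -3.63 ± 0.424 in RANKL libraries (SD, n = 4 each), a difference of 0.49 given as a description with no test. Without control replicate 4, where Atoh1 had 2 counts, the difference was 0.26, and without control replicate 3 it was 0.66.

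The order of the levels differed between the groups. A 3′ tag is read once per transcript whatever its length, so CPM can be set side by side between genes on this scale, within the limits of where each gene's 3′ end is annotated. In control organoids the order by mean CPM was Hes1, Nrarp, Notch1, Rbpj, Jag1, Dll1, Atoh1, Notch2, Jag2 and Dll4. The neighbours Hes1 and Nrarp, Nrarp and Notch1, and Rbpj and Jag1 did not overlap in control, and all other neighbours did. In RANKL organoids the order was Hes1, Rbpj, Dll1, Notch1, Jag1, Nrarp, Atoh1, Notch2, Dll4 and Jag2, and only Hes1 and Rbpj, and Rbpj and Dll1, did not overlap. Nrarp thus went from rank 2 to rank 6, Dll1 from rank 6 to rank 3 and Rbpj from rank 4 to rank 2, and Jag2 and Dll4 exchanged the last places, while Hes1 was the highest and Atoh1 the seventh in both groups.

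Other genes of the pathway and of secretory fate were described in 5 lists of 90 genes, 56 of which could be tested. Of these, 5 were higher and 13 lower past the threshold, with a median log2 fold change of -0.15. Over all genes tested, 13.6% were higher and 12.4% lower, and the counts of each list below stand beside these shares. Without RANKL replicate 4, 8 were lower, and 6 were lower once the log2 library total was a covariate. Of the 7 other receptors and ligands (such as Notch3, Notch4 and Dll3), 0 passed the count filter, and their summed level was between 4.71 and 9.69 CPM in every library.

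Of the 30 genes that process receptors and ligands, 22 were tested, 2 rose, 4 fell and 16 did not pass, with a median log2 fold change of 0.04. Neurl1b, a ubiquitin ligase that drives ligand endocytosis, rose from 398.9 ± 51.2 to 697.7 ± 52.6 CPM (log2 fold change 0.80, SE 0.10, edgeR adjusted p = 3.0e-07). Dtx4, a Deltex ubiquitin ligase of the receptor, rose by a log2 fold change of 0.64 (SE 0.11, edgeR adjusted p = 2.2e-05). Both glycosylation genes that passed were lower: Lfng, the Fringe enzyme that tunes receptors toward Delta-like ligands, at -0.74 (SE 0.21, edgeR adjusted p = 0.0091), and Pofut1, the O-fucosyltransferase of Notch, at -0.59 (SE 0.15, edgeR adjusted p = 0.0029), whose groups overlapped through RANKL replicate 1. Numb, an inhibitor of the receptor, fell by a log2 fold change of 0.64 (SE 0.17, edgeR adjusted p = 0.0053), and Aph1a, a γ-secretase subunit, by 0.52 (SE 0.17, edgeR adjusted p = 0.024). The call of Aph1a held in 6 of the 8 fits with a library left out. The proteases that cut the receptor were not past the threshold, with Adam10 at 46.2 ± 4.12 and 49.0 ± 5.70 CPM (SD, n = 4 each).

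Of the 25 nuclear cofactors of RBPJ and HES, 21 were tested, 1 rose and 6 fell, with a median of -0.14. Tle3, a Groucho corepressor used by HES proteins, was at 60.3, 66.8, 61.3 and 63.6 CPM in control and at 200.2, 147.3, 159.1 and 185.6 CPM in RANKL libraries. All RANKL libraries lay far above the controls (log2 fold change 1.45, SE 0.12, edgeR adjusted p = 3.6e-11). Its relatives went the other way, with Tle1 at -0.68 (SE 0.16, edgeR adjusted p = 0.0013) and Tle4 at -0.47 (SE 0.13, edgeR adjusted p = 0.0067), and Tle3 went from close to the level of Tle1 to well above it. Ncor1, a corepressor that RBPJ recruits, fell from 517.7 ± 22.5 to 395.7 ± 11.8 CPM (log2 fold change -0.39, SE 0.091, edgeR adjusted p = 0.0017). Kat2a, an acetyltransferase, was lower by a log2 fold change of 0.48 (SE 0.15, edgeR adjusted p = 0.020), and Cir1, a corepressor linked to RBPJ, was at -0.62 (SE 0.23, edgeR adjusted p = 0.048), a call that held in 2 of 8 fits with a library left out.

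Of the 10 other Notch targets, 2 were tested and neither passed the threshold, and 5, among them Hey1, Hey2 and Heyl, had 0 counts in all 8 libraries. Olfm4, which marks crypt base cells with Notch activity and shares exonic sequence on its strand with Gm6999, was at 1364, 1059, 1012 and 1211 CPM in control and at 1093, 1076, 1070 and 865.6 CPM in RANKL libraries. Its groups overlapped, with a log2 fold change of -0.18 (SE 0.10, 95% interval -0.39 to 0.03, edgeR adjusted p = 0.22). Of the 4 targets tested, Hes1 and Nrarp included, Hes1 and Nrarp passed.

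Of the 18 transcription factors of secretory fate other than Atoh1, 11 were tested, 2 rose and 3 fell, with a median of -0.30. Sox4, active in early secretory progenitors, rose from 418.9 ± 15.9 to 835.9 ± 57.9 CPM (log2 fold change 1.00, SE 0.093, edgeR adjusted p = 7.4e-10), and Sox9, a crypt factor needed for Paneth cells, rose by a log2 fold change of 0.63 (SE 0.091, edgeR adjusted p = 3.1e-06). Foxa3, a factor of goblet cells, fell from 366.0 ± 42.4 to 207.6 ± 27.7 CPM (log2 fold change -0.80, SE 0.11, edgeR adjusted p = 1.4e-06). Spdef, which matures goblet and Paneth cells, was at -0.57 (SE 0.20, edgeR adjusted p = 0.031) with overlapping groups and a call that held in 5 of 8 fits with a library left out, and Klf4, another goblet factor, fell by 0.51 (SE 0.12, edgeR adjusted p = 0.0022). Neurog3, which starts the enteroendocrine lineage, was at 13.6 ± 1.85 and 15.9 ± 5.81 CPM, and Hes6 at 238.2 ± 14.9 and 231.1 ± 22.3 CPM (SD, n = 4 each). Neither passed the threshold, with log2 fold changes of 0.09 (95% interval -0.39 to 0.58) and -0.04 (95% interval -0.25 to 0.16).

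**Figure D3:**
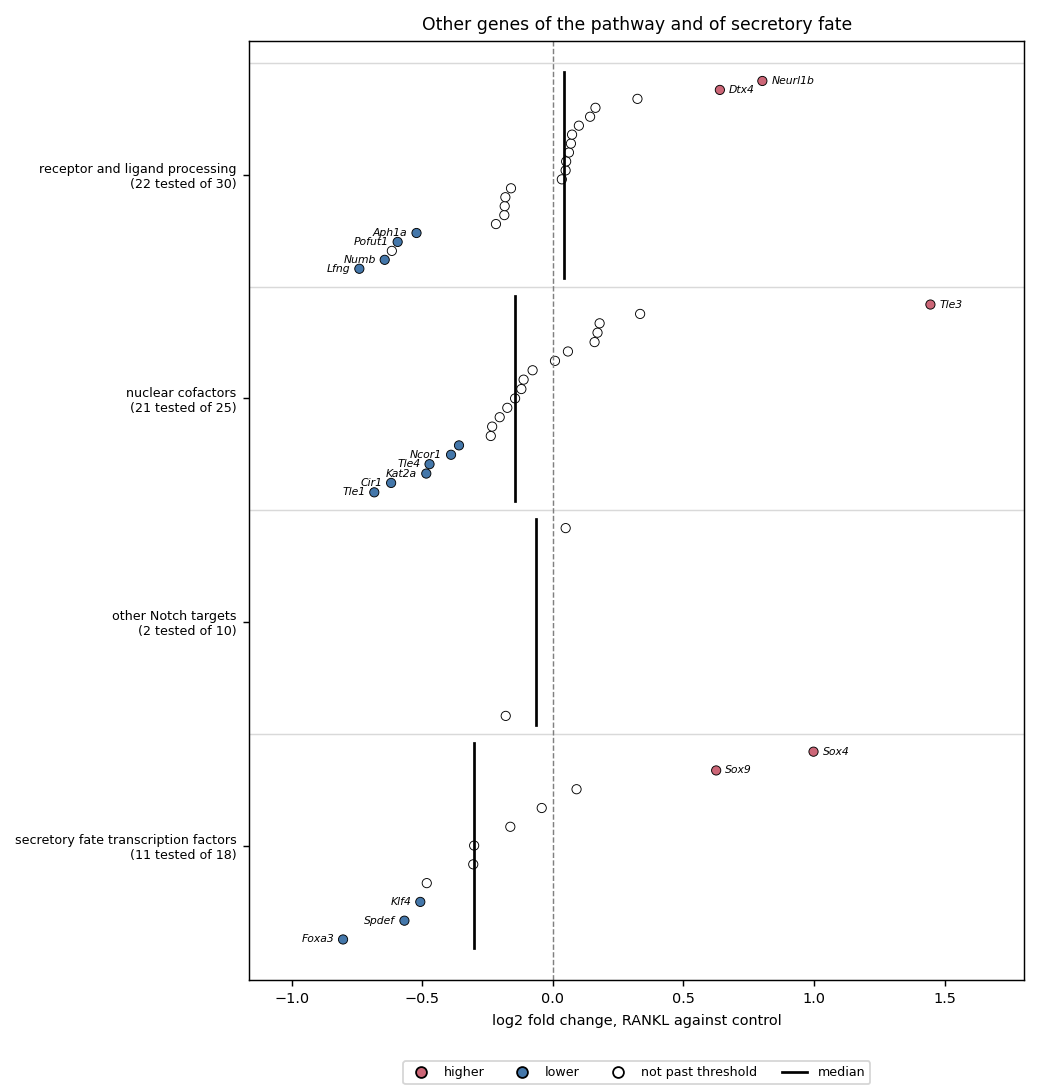
Log2 fold change of RANKL against control for the tested genes of 4 lists (the fifth, other receptors and ligands, had none tested). Each point is 1 gene, red higher and blue lower past the threshold and open where not, with most named genes labelled, and the black line is the list's median. Tle3 and Sox4 stand furthest to the right and Foxa3 and Lfng to the left, and most points lie within 0.4 of 0.

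The secretory lineages were read from their marker genes. The counts of each marker list, here and below, stand beside 13.6% higher and 12.4% lower over all genes tested. Of the 11 tested of 15 Paneth cell markers, 2 rose and 2 fell (median 0.09). Of the 11 tested of 12 goblet cell markers 1 rose (median -0.01), and of the 11 tested of 15 enteroendocrine cell markers 3 rose (median 0.18). Only 1 of 12 tuft cell markers had enough counts. Among the goblet cell markers Guca2a, the precursor of guanylin, rose from 236.8 ± 52.1 to 794.9 ± 61.6 CPM (log2 fold change 1.75, SE 0.12, edgeR adjusted p = 1.8e-12), and the other 10 tested did not pass. The enteroendocrine cell markers that rose were the hormones Sct at 0.46 (SE 0.17, edgeR adjusted p = 0.045, held in 3 of 8 fits with a library left out), Cck at 0.39 (SE 0.12, edgeR adjusted p = 0.012) and Gip at 0.38 (SE 0.12, edgeR adjusted p = 0.015). Among the Paneth cell markers, the defensins Defa21 at 0.77 (SE 0.15) and Defa17 at -0.70 (SE 0.14) went opposite ways. They belong to a family of similar genes, and whether the counting split their reads wrongly was not tested. Nupr1 fell by 0.76 (SE 0.14, edgeR adjusted p = 8.1e-05).

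On the absorptive side, all 16 enterocyte markers were tested, 1 rose and 4 fell (median -0.13), with Apoa1, an apolipoprotein, higher at 0.33 (edgeR adjusted p = 0.011), and the lipoprotein assembly genes lower, Apob at -0.61 (SE 0.13, edgeR adjusted p = 0.00079) and Mttp at -0.57 (SE 0.10, edgeR adjusted p = 9.0e-05). The stem cell markers were split, with 3 higher and 3 lower of 11 tested (median 0.11). Msi1, an RNA-binding protein that represses Numb in other tissues, rose from 12.8 ± 3.80 to 37.1 ± 3.10 CPM (log2 fold change 1.404, SE 0.19, edgeR adjusted p = 7.8e-07). Cd44 rose by 1.61 (SE 0.12). Lgr5, which marks the stem cells that receive Delta-like ligands from their Paneth neighbours, fell by 2.22 (SE 0.20, edgeR adjusted p = 3.0e-10).

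**Figure D4:**
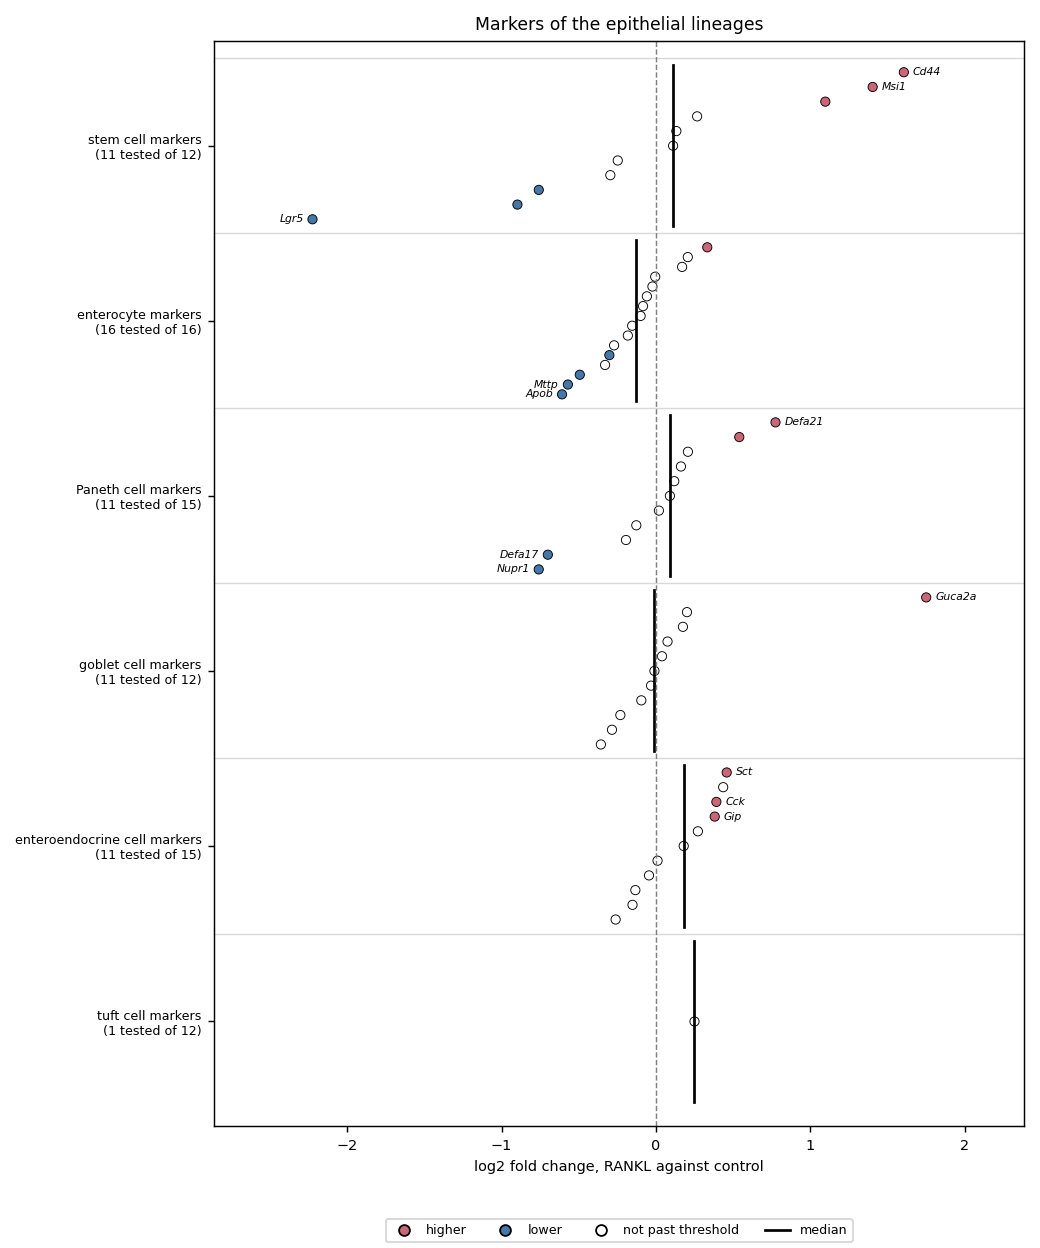
Log2 fold change of RANKL against control for the tested markers of 6 epithelial lineages. Each point is 1 gene, red higher and blue lower past the threshold and open where not, with most named genes labelled, and the black line is the list's median. The medians lie between -0.13 and 0.25, and the stem cell markers spread furthest, from Lgr5 at -2.22 to Cd44 at 1.61.

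Markers of other cells moved with the groups too. All 10 tested of 12 M cell markers rose (median 3.51), and the groups did not overlap in 9 of them. Clu rose with overlapping groups. Of those not tested, Gp2 had 0 counts in all 8 libraries, and Tnfrsf11b had 0 counts in control and 39 in RANKL libraries. The summed level of the list was between 354.3 and 410.8 CPM in control and between 2756 and 3091 CPM in RANKL libraries. Spib, the ETS factor of M cells, rose from 4.35 ± 1.42 to 1607 ± 123.9 CPM (log2 fold change 8.56, SE 0.16). The part of these cells in the differences of Dll1, Rbpj, Hes1 and Nrarp was not tested. Markers of cells outside the epithelium were low. Of the 10 immune markers, 0 passed the count filter, with sums of 3.44 to 8.87 and 4.13 to 16.1 CPM. Mesenchymal markers summed to 16.04 to 49.9 CPM in control and 32.4 to 46.8 CPM in RANKL libraries, with 2 of 10 tested, of which Pdgfrb rose (log2 fold change 2.53, SE 0.30). Endothelial markers summed to 42.9 to 51.6 and 35.2 to 39.9 CPM, with 2 of 10 tested, of which Egfl7, whose exons overlap Gm20532 and Mir126a, fell (log2 fold change -0.60, SE 0.17). Of these 10 markers, 6 held under 10 counts in all, and 3 of those (Cdh5, Kdr and Tie1) had 0 counts. The part of such cells in the differences was not tested.

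The genes closest in pattern to Atoh1 and to Hes1 were found by the root mean square difference of log2 CPM, each gene centred on its own mean, over the 8 libraries and among tested genes at a mean of at least 20 CPM. For Atoh1 they were Gm43323 (0.111), 5430405H02Rik (0.165) and Nek6 (0.171), against a median of 0.441 over 6647 genes. Atoh1 held 3 to 15 counts in the RANKL libraries and 2 in control replicate 4, so its pattern includes much counting error. The closest 3 of so many genes lie under the median by selection. For Hes1 they were Dhrs4 (0.0969), Ctdspl2 (0.100) and Aldh1b1 (0.103), against a median of 0.350 over 6646 genes. The libraries share depth and group in both genes of each pair, and Dhrs4 and Aldh1b1 fell with RANKL past the threshold (log2 fold changes -0.37 and -0.60), as Hes1 did, while Ctdspl2 was at -0.36 and did not pass.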

How the data were processed

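Total RNA of 8 organoid samples was made into QuantSeq 3′ mRNA libraries (forward kit, oligo(dT) primed) and sequenced as single reads. The authors trimmed reads with BBDuk, removed ribosomal, mitochondrial and other abundant sequences with bowtie2, aligned to GRCm38 (named mm10 in the submitters' processing notes) with STAR and counted reads per Ensembl gene, by strand, with featureCounts. They deposited these raw counts without normalization. Reads reflect transcript 3′ ends, so a count does not scale with gene length.

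The groups were compared with the quasi-likelihood test of edgeR 4.0.16 (R 4.3.3), using TMM factors and its low-count filter. P-values were adjusted by Benjamini-Hochberg over all 9971 genes that passed, and 0.05 was the threshold. SE is the log2 fold change over the square root of F. Permutation tests on CPM were exact and two-sided over 70 assignments. Alternatives were DESeq2 1.42.0 (size factors, and its Wald test), limma 3.58.1 (voom), library totals alone, no count filter, a minimum of 10 counts per library, a replicate block, library depth as a log2 covariate, single libraries left out, both libraries under 1000000 counts left out, a stricter adjusted p (0.01), a minimum fold of 2, and 1 CPM in place of 0.5 CPM in the ratio. The steps were tested on simulated data. Of the listed genes, 54495 of 54532 matched GENCODE M21, which gave symbols, coordinates and exon overlaps on GRCm38, and is not the release used for counting. Promoter windows come from RefSeq on GRCm38.p6, with 9 of 10 genes matched and 11 windows, of which the 250 bases before the start were used. Hes1 had no entry. Tables were made with Python 3.11.15, pandas 2.3.3 and scipy 1.17.1.

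The genes named are the 10 themselves, up to 6 genes past the threshold with the largest change at a mean of at least 5 CPM from each pathway list, up to 3 such genes from each marker list, and the 3 genes closest to Atoh1 and to Hes1. A gene that this rule names is not reported here. Adam10, Olfm4, Neurog3, Hes6, Notch3, Notch4, Dll3, Hey1, Hey2, Heyl, Rbpjl, Apoa1, Gp2, Clu, Tnfrsf11b, Cdh5, Kdr, Tie1 and the pseudogenes of Rbpj are outside this rule and were named after values were seen. The 10 genes and the lists were chosen with earlier results of these data known. Within a group, Spearman correlations between libraries were 0.9579 to 0.9861, and counts differed by more than sampling noise in every pair (chi-square over its degrees of freedom 1.25 to 15.35), so no libraries were merged.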

Additional observations from a re-analysis of the deposited data

Results flagged for a closer look

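None of the 10 genes had a library that stood apart from the other 3 of its group by Dixon's test. Over the 10 genes and the genes named from the lists, 7 of 90 groups of 4 libraries had one. Chance gives about 1 in 20, or 4.5, over all 90, and all 7 were in genes named from the lists. Lfng was at 44.6 CPM in control replicate 3, against 28.9 CPM in the next control library. Dtx4 was at 209.6 CPM in the same library, with the next at 223.6 CPM. Kat2a was at 58.5 CPM in control replicate 4, one of the shallow libraries, with the next at 43.7 CPM. Sox4 was at 749.7 CPM in RANKL replicate 4, below the next RANKL library at 857.3 CPM. Cck was at 84.3 CPM in control replicate 2, with the next at 72.2 CPM, and Gip at 78.9 CPM in control replicate 1, with the next at 73.2 CPM. Pdgfrb was at 23.5 CPM in RANKL replicate 3, with the next at 17.8 CPM. The library that stood apart widened the difference between the groups for Lfng, Kat2a, Dtx4 and Pdgfrb. It narrowed the difference for Sox4, Cck and Gip. The calls of Lfng and Kat2a held in 7 of 8 fits with a library left out, and those of Dtx4 and Pdgfrb in all 8.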

How the results depend on the processing

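Dll1, Rbpj and Nrarp kept direction and call under every alternative fit that could test them. At least 10 counts in every library left Dll1 and Nrarp untested, so that 1 of the 10 genes was higher and 1 lower. A fold of at least 2 also left 1 higher and 1 lower of the 10 genes (Dll1 and Nrarp), and 438 higher and 139 lower of all genes. With library depth as a log2 covariate, Hes1 was at -0.41 (edgeR adjusted p = 0.0635), 1 of the 10 genes, 6 genes of the 5 pathway lists and 808 of all genes were lower, and the signs of the uncalled Jag1 (0.33) and Atoh1 (0.042) turned; the cause was not tested. Atoh1 was also at 0.0021 without control replicate 2 and at 0.10 without RANKL replicate 3, where the full fit gave -0.10, and single libraries left out gave -0.32 to 0.10. Leaving out single libraries gave 814 to 1234 genes lower and 8 to 13 lower in the pathway lists, the least of both without RANKL replicate 4. An adjusted p of 0.01 left 707 genes lower. Without both libraries under 1000000 counts, 2 of the 10 genes were higher and 2 lower, with Hes1 at an edgeR adjusted p of 0.0163. Whether the replicate numbers pair the libraries is not given in the labels. Same-numbered libraries correlated at -0.007, -0.033, 0.101 and 0.035 in their deviations from the group means. With 4 libraries of unlike depth per group, these values cannot settle it. The replicate block left 2 higher and 2 lower of the 10 genes, with 1362 and 1248 of all genes.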
